A study of Homo sapiens with 6 samples.

Results

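The 7 mature miRNAs described here come from the miR-99a, miR-100 and miR-125b hairpins, which lie in a pair of paralogous long non-coding host genes, MIR100HG on chromosome 11 and MIR99AHG on chromosome 21. They were taken by name from the deposited tables, in which they make up 7 of 2588 listed miRNAs: hsa-miR-100-5p, hsa-miR-100-3p, hsa-miR-99a-5p, hsa-miR-99a-3p, hsa-miR-125b-5p, hsa-miR-125b-1-3p and hsa-miR-125b-2-3p, written from here on without the prefix for human. The let-7 hairpins of the same clusters were not counted as members. Small RNA was sequenced from A549, a human lung adenocarcinoma cell line that carried a doxycycline-inducible knockdown of METTL1, the methyltransferase known for placing N7-methylguanosine (m7G) in tRNA. There were 3 libraries of total RNA and 3 libraries of RNA recovered with an antibody to m7G (m7G-RIP). Knockdown had been induced with 200 ng/ml doxycycline in both groups, which were collected on day 5, and per the methods the knockdown was an inducible short hairpin RNA delivered by lentivirus. The culture text of the m7G-RIP samples describes medium for Caco-2, an intestinal line, whereas their titles and cell line labels name A549. Cells with METTL1 and a control antibody were not analysed here, so what is compared is recovered against total RNA of knockdown cells, and no effect of METTL1 is measured.

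A miRNA hairpin is cut by Drosha and Dicer into a short duplex, and either strand, named 5p or 3p after its arm, can be loaded into an Argonaute protein. The loaded strand recognises mRNAs mainly through its seed, bases 2 to 8. miR-100 and miR-99a belong with miR-99b to a family known for repressing MTOR, while miR-125b shares its seed with miR-125a, the relative of the worm miRNA lin-4. The clusters on chromosomes 11 and 21 each carry a miR-99 family hairpin, a let-7 hairpin and a miR-125 hairpin, and a further copy of that arrangement on chromosome 19 holds miR-99b, let-7e and miR-125a. m7G carries a methyl group on N7 of guanine and leaves Watson-Crick pairing intact.

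The comparison turned on strands that are close in sequence, so the mature sequences are shown first, 5′ to 3′ from RefSeq (GRCh38.p14), with the seed in capitals. The 5p strands of miR-100 and miR-99a share the seed and every other base but one, which is A16U from miR-100-5p to miR-99a-5p, counted from 1 at the 5′ end. In the first 2 lines below the seed is marked, and in the following 2 lines the capital marks that single base.
miR-100-5p: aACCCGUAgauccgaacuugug
miR-99a-5p: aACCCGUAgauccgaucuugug
miR-100-5p, position 16: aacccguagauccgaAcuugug
miR-99a-5p, position 16: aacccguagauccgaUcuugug

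The 3p strands of these hairpins are shown with their seeds in capitals because they were the least counted of the set. They differ at 5 positions (U7C, U9C, A10U, A16G and A20C from miR-100-3p to miR-99a-3p), the first of which lies in the seed.
miR-100-3p: cAAGCUUGuaucuauagguaug
miR-99a-3p: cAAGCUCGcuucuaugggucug

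The mature miR-125b-5p is made from both MIR125B1 and MIR125B2, so its counts cannot be given to either hairpin. The 3p strands tell the hairpins apart. They have different seeds but share a stretch of 12 bases, at positions 8 to 19 of miR-125b-1-3p and 10 to 21 of miR-125b-2-3p. The first 3 lines mark the seed and the following 2 lines mark the shared stretch.
miR-125b-5p: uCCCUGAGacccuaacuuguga
miR-125b-1-3p: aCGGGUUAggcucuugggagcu
miR-125b-2-3p: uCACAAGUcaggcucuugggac
miR-125b-1-3p, shared stretch: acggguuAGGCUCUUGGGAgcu
miR-125b-2-3p, shared stretch: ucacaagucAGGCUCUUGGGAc

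In the GENCODE annotation of GRCh38, MIR100 lies at 11:122152229-122152308 and MIR125B1 at 11:122099757-122099844, both on the minus strand. They are separated by 52384 bases, with MIRLET7A2 between them, and both are intronic in every MIR100HG transcript that spans them. MIR99A lies at 21:16539089-16539169 and MIR125B2 at 21:16590237-16590325, both on the plus strand and 51067 bases apart, with MIRLET7C 658 bases beyond MIR99A. MIR99A is intronic in 128 MIR99AHG transcripts and exonic in 0. MIR125B2 is intronic in 125 transcripts and lies wholly in an exon of 1.

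The total RNA libraries held 9155690 to 10753443 miRNA counts and the m7G-RIP libraries 2649238 to 3106556. Levels are given as CPM (counts scaled to a common library total) after TMM scaling, which corrects library sizes for the composition of each library, and a log2 ratio is the level in m7G-RIP over that in total RNA. How much RNA the antibody recovered is unknown, and each ratio is therefore relative to the remaining miRNAs. With library size alone as the scale, the median log2 ratio over the whole tested set was 0.55 higher, and the members' own ratios were 0.53 to 0.55 higher. Ratios between members within a library do not depend on this choice. As a check of the labelled cell type, each group had 6 of 7 blood cell markers, 1 of 2 stromal markers and 1 of 4 muscle, liver and brain markers at 0 in all of its libraries. Summed without TMM scaling, with total RNA given first, the blood markers reached 0.390 against 1.81 CPM. The stromal markers summed to 3.93 to 5.95 against 5.28 to 36.9 CPM in the same order, and the muscle, liver and brain markers to 8.18 to 9.65 against 1.29 to 135 CPM. The 9 intestinal epithelial markers summed to 18467 to 18732 CPM in total RNA and 4023 to 4266 CPM in m7G-RIP without TMM scaling. Of these 9, 1 was at 0 in every m7G-RIP library. Most of them were lower in m7G-RIP. TMM-scaled log2 ratios were -3.27 for miR-215-5p, -2.92 for miR-200a-3p, -2.87 for miR-192-5p, -2.60 for miR-429 and -2.43 for miR-194-5p. They were -1.56 for miR-200b-3p, 0.08 for miR-200c-3p and 0.85 for miR-375. Of these, miR-429 and miR-200c-3p were not past an adjusted p of 0.05 in edgeR. The part of all these marker differences in the results was not tested. Nothing in the labels says that replicates were separate cultures, so p-values measure the spread between these libraries, which may be technical.

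Of the 7 members, 5 had enough counts to be tested in edgeR, of which 1 was enriched in m7G-RIP, 3 were depleted and 1 passed in neither direction (adjusted p under 0.05). Over all 620 miRNAs tested, 23.5% were enriched and 29.2% depleted, together 52.7%. The median log2 ratio was -0.73 over the 5 tested members and -0.07 over all tested miRNAs. With library size alone the members divided into 2 enriched and 2 depleted, against 34.8% and 22.7% of all tested miRNAs. The enriched member was miR-125b-1-3p and the depleted ones were miR-99a-5p, miR-125b-5p and miR-125b-2-3p.

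**Figure D1:**
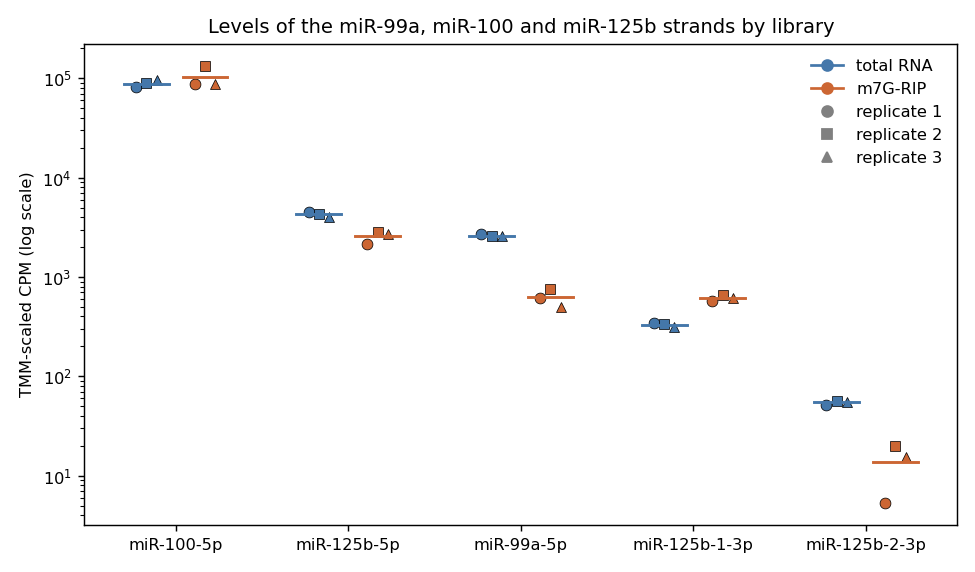
TMM-scaled CPM on a log axis for the 5 tested members, with a point for each library, its shape giving the replicate number, and a line at the mean of each group. The 3 m7G-RIP points lie below all 3 total RNA points for miR-99a-5p, miR-125b-5p and miR-125b-2-3p, and above them for miR-125b-1-3p. For miR-100-5p the groups overlap, with m7G-RIP replicates 1 and 3 inside the range of total RNA and replicate 2 above it.

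miR-100-5p was the most abundant member and ranked 2 among all miRNAs in both groups. Its level in total RNA was 80909, 89021 and 95058 CPM, and in m7G-RIP it was 86763, 133278 and 87944 CPM. The groups overlapped, with m7G-RIP replicate 2 above every other library. The log2 ratio was 0.22 (SE 0.17, adjusted p = 0.301), and it was -0.19 without m7G-RIP replicate 2. With library size alone it was 0.76 (adjusted p = 0.00241), which counts as enriched.

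miR-99a-5p, which differs from miR-100-5p at position 16 only, was depleted 4.20-fold. It had 2679, 2573 and 2585 CPM in total RNA and 609, 762 and 497 CPM in m7G-RIP. All 3 m7G-RIP values were under all 3 total RNA values, as was the case for 36.5% of all tested miRNAs. The log2 ratio was -2.07 (SE 0.16, adjusted p = 5.77e-06) and stayed past the threshold in each alternative, between -2.41 and -1.52. Its rank went from 35 in total RNA to 66 in m7G-RIP.

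miR-125b-5p was depleted by a smaller amount. Its level was 4494, 4282 and 4016 CPM in total RNA and 2156, 2835 and 2726 CPM in m7G-RIP, again with no overlap. The log2 ratio was -0.73 (SE 0.12, adjusted p = 0.00108). That call was lost with library size alone, where the log2 ratio was -0.18 (adjusted p = 0.160).

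The 3p strand of MIR125B1, miR-125b-1-3p, was the enriched member, with 344, 336 and 317 CPM in total RNA against 578, 656 and 620 CPM in m7G-RIP. All 3 m7G-RIP values exceeded all 3 total RNA values, as for 29.5% of all tested miRNAs. The log2 ratio was 0.90 (SE 0.12, adjusted p = 0.000211), a 1.86-fold difference. It ranged from 0.62 to 1.45 over the alternatives and was past the threshold in each.

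The 3p strand of MIR125B2 went the other way. miR-125b-2-3p had 51.7, 56.8 and 55.2 CPM in total RNA and 5.30, 20.1 and 15.5 CPM in m7G-RIP. The m7G-RIP values rested on 18, 64 and 58 counts, and replicate 1 was the lowest. The log2 ratio was -2.0 (SE 0.43, adjusted p = 0.00386).

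The 3p strands of MIR100 and MIR99A were near the limit of counting. miR-100-3p had 0, 1 and 9 counts in total RNA and 0 in each m7G-RIP library. miR-99a-3p had 5, 10 and 0 counts in total RNA and 0, 10 and 0 in m7G-RIP. A count of 0 allows a level of up to 0.279 to 0.328 CPM in total RNA and 0.966 to 1.13 CPM in m7G-RIP. These are 3 counts over the library size, without the TMM scaling of the levels above. Neither strand could therefore be compared at this depth. These limits, like the intervals, cover counting error only.

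The 5p strands of miR-100 and miR-99a were then compared inside each library, where scaling drops out. The log2 ratio of miR-100-5p to miR-99a-5p was 4.92, 5.11 and 5.20 in total RNA and 7.15, 7.45 and 7.47 in m7G-RIP. The shift of 2.28 is a 4.86-fold change of the ratio. The exact two-sided permutation test gave p = 0.1, the smallest that 3 against 3 libraries allow, and 0.133 after adjustment over the 8 pairs compared. Put as a share, miR-99a-5p made up 2.89% ± 0.287 (SD, n = 3) of the counts of both strands in total RNA and 0.609% ± 0.0764 (SD, n = 3) in m7G-RIP. The exact binomial 95% intervals of single libraries were narrow beside this difference, with the highest m7G-RIP library at 0.697% (0.668 to 0.728) and the lowest total RNA library at 2.65% (2.61 to 2.68). Reads of the strands are told apart by 1 base. Per the methods the alignment allowed 1 mismatch and kept only hits with the best score, while the submitters' notes name another aligner. The part of misread or misplaced reads in these counts was not tested.

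**Figure D2:**
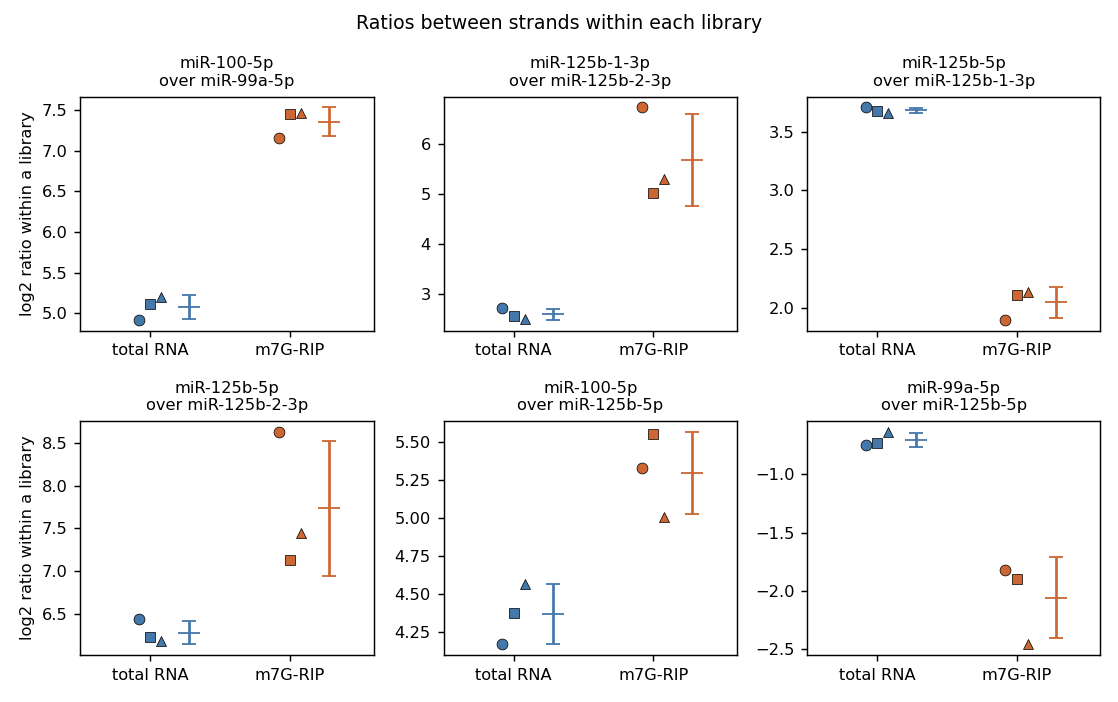
log2 ratio of the counts of a pair of members within each library, for 6 pairs, with total RNA on the left and m7G-RIP on the right of each panel; shapes give replicate numbers and bars the mean and SD of 3 libraries. No panel drawn has overlapping groups, and the axes differ between panels, with the largest mean shift for miR-125b-1-3p over miR-125b-2-3p at 3.08. Such separation was common: of single tested miRNAs, 29.5% had every m7G-RIP library above every total RNA library and 36.5% had every one below. The pairs of miR-100-5p with miR-100-3p and of miR-99a-5p with miR-99a-3p, on few 3p counts, are not drawn. In both of those pairs the groups overlapped.

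The MIR125B1 and MIR125B2 3p strands moved apart further still. Their log2 ratio was 2.73, 2.56 and 2.52 in total RNA and 6.73, 5.02 and 5.31 in m7G-RIP. The shift was 3.08, or 8.46-fold (exact permutation p = 0.1, adjusted 0.133). miR-125b-2-3p made up 14.1% ± 0.936 (SD, n = 3) of the counts of both 3p strands in total RNA and 2.11% ± 1.07 (SD, n = 3) in m7G-RIP. The m7G-RIP share of replicate 1 was 0.909% (exact 95% interval 0.539 to 1.43), below the 2.97% of replicate 2 and the 2.44% of replicate 3. These are the strands that share the 12-base stretch shown above and differ in their 5′ parts.

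Against the common 5p strand, the 3p strands therefore shifted in opposite directions. The log2 ratio of miR-125b-5p to miR-125b-1-3p was 3.71, 3.67 and 3.66 in total RNA and 1.90, 2.11 and 2.14 in m7G-RIP, a shift of -1.63. The log2 ratio of miR-125b-5p to miR-125b-2-3p was 6.44, 6.23 and 6.18 in total RNA and 8.63, 7.13 and 7.44 in m7G-RIP, a shift of 1.45. Both had an exact permutation p = 0.1. miR-125b-1-3p accounted for 7.15% ± 0.0998 (SD, n = 3) of the counts of the 3 miR-125b strands in total RNA and 19.4% ± 1.47 (SD, n = 3) in m7G-RIP.

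The arms of other hairpins give the scale of such shifts. Among 70 hairpins with at least 10 counts of both arms in every library, the median shift of 5p over 3p was 0.098 (quartiles -1.20 and 1.66), and 44 shifted by 2-fold or more. MIR125B1 was number 15 from the lowest and MIR125B2 number 49, so neither was at an end of the range. The shift of MIR100 could not be read, because miR-100-3p had almost no counts. It was 0.86 (exact permutation p = 0.7), turned to -0.29 without total RNA replicate 3 and to -0.50 with a pseudocount of 5. For MIR99A the shift was -2.21 (exact permutation p = 0.4), also on few 3p counts. It was -0.97 when total RNA replicate 3 was left out, -0.85 when m7G-RIP replicate 2 was left out, and -3.02 with a pseudocount of 5 (exact permutation p = 0.1).

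Between the families, miR-100-5p shifted up against miR-125b-5p and miR-99a-5p shifted down against it. The log2 ratio of miR-100-5p to miR-125b-5p was 4.17, 4.38 and 4.56 in total RNA and 5.33, 5.55 and 5.01 in m7G-RIP, a shift of 0.93. The log2 ratio of miR-99a-5p to miR-125b-5p was -0.75, -0.73 and -0.64 in total RNA and -1.82, -1.90 and -2.46 in m7G-RIP, a shift of -1.35. Neither pair overlapped between groups (exact permutation p = 0.1 for each). Separate groups were also common among single tested miRNAs, with m7G-RIP above for 29.5% and below for 36.5%. In order of level, miR-100-5p was followed by miR-125b-5p, miR-99a-5p, miR-125b-1-3p and miR-125b-2-3p in total RNA, with no overlap between neighbours. In m7G-RIP the ranges of miR-99a-5p (497 to 762 CPM) and miR-125b-1-3p (578 to 656 CPM) overlapped.

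As a share of all miRNA counts, the miR-99 family 5p strands of these clusters were larger in m7G-RIP, and nearly all of that share was miR-100-5p. Together miR-100-5p and miR-99a-5p held 6.89%, 7.51% and 8.11% of counts in total RNA and 11.2%, 15.5% and 10.6% in m7G-RIP, a difference of 4.92 percentage points (exact permutation p = 0.1). With the counts of miR-21-5p taken out of the total, the difference turned to -1.19 points (p = 0.4, exact permutation), and with the 10 most abundant other miRNAs taken out it was 8.88 points (p = 0.1, exact permutation). miR-125b-5p held 0.352% ± 0.0184 (SD, n = 3) in total RNA and 0.310% ± 0.0295 (SD, n = 3) in m7G-RIP. That difference was -0.041 points, -0.024 without m7G-RIP replicate 1, and -0.344 and -0.363 with those same totals. All 7 members together held 7.89% ± 0.592 (SD, n = 3) and 12.8% ± 2.65 (SD, n = 3).

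The single-base difference between miR-100-5p and miR-99a-5p was set beside other pairs of that kind. Of 322 miRNAs with a RefSeq sequence and at least 10 counts in every library, 11 pairs had the same length and differed at a single base. Their median absolute shift within libraries was 0.62 (quartiles 0.31 and 0.91), and 3 pairs shifted by 2-fold or more. miR-100-5p with miR-99a-5p had the largest of the 11 at 2.28, followed by miR-1185-1-3p with miR-1185-2-3p at 1.64 and let-7a-5p with let-7e-5p at 1.02. At the other end, let-7a-5p and let-7c-5p, which are neighbours of the members in the same clusters, shifted by 0.0093. Pairs that share a miRNA are not independent, and no test was made over them.

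**Figure D3:**
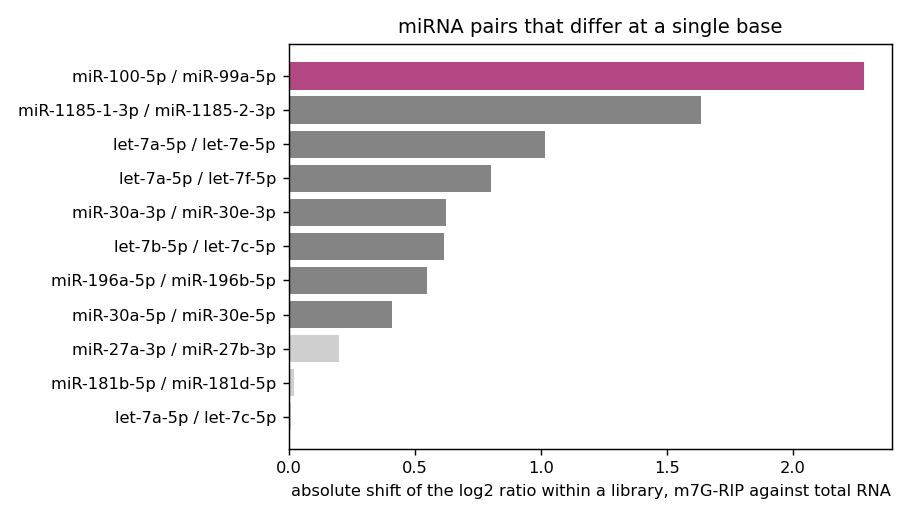
Absolute shift, between m7G-RIP and total RNA, of the log2 ratio within a library for the 11 pairs of miRNAs that differ at a single base; bars start at 0 and pale bars are pairs whose groups overlapped. The pair of miR-100-5p and miR-99a-5p is marked in colour and stands at 2.28.

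The number of guanines is the same in the 5p strands that moved apart. miR-100-5p and miR-99a-5p both have 5 G and none next to another. Across 557 of the 620 tested miRNAs that had a sequence, the log2 ratio correlated with the number of G (Pearson r = 0.396, Spearman rho = 0.420), a description over miRNAs that share the same 6 libraries. The 82 tested miRNAs with 5 G had a median log2 ratio of -0.72, with quartiles -2.07 and 0.24. miR-100-5p at 0.22 lay near the upper quartile and miR-99a-5p at -2.07 at the lower. miR-125b-5p has 4 G, and its log2 ratio of -0.73 lay above the median of -1.09 for its class of 64. For the 3p strands, miR-125b-1-3p has 9 G and a log2 ratio of 0.90, under the median of 1.33 in its class of 40. miR-125b-2-3p has 6 G and a log2 ratio of -2.0, where the median of its 64 was -0.36 and the lower quartile -1.84.

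**Figure D4:**
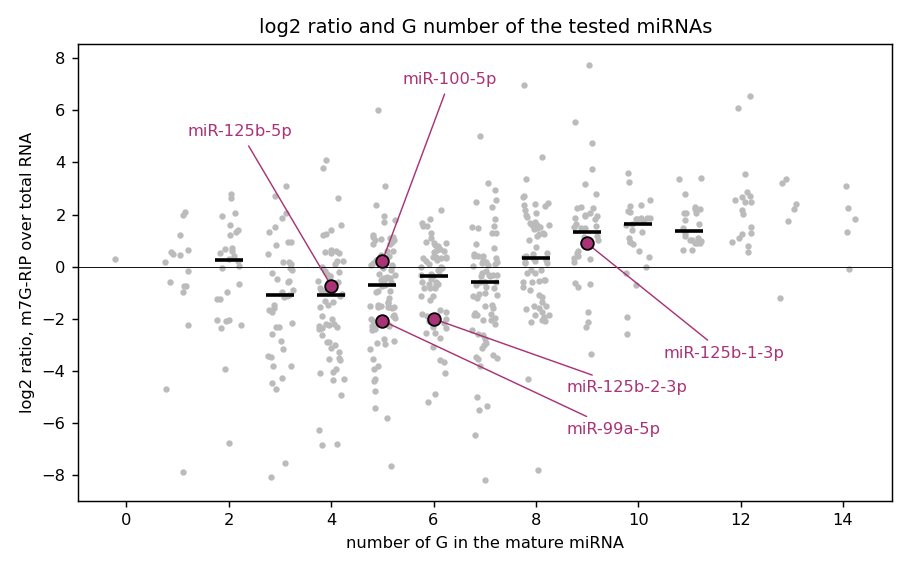
log2 ratio of m7G-RIP over total RNA (vertical axis) against the number of G in the mature miRNA (horizontal axis, points spread sideways) for 557 tested miRNAs in grey, with a black bar at the median of each G number held by 20 or more miRNAs. The 5 tested members are in colour, with miR-100-5p at 0.22 and miR-99a-5p at -2.07 in the same column.

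The paralogs with the same seeds gave a further comparison, and their sequences are shown with the seed in capitals. miR-99b-5p has the seed of miR-100-5p and miR-99a-5p, and miR-125a-5p has that of miR-125b-5p. miR-125a-3p has a seed of its own.
miR-99b-5p: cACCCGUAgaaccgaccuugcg
miR-125a-5p: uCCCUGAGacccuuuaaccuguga
miR-125a-3p: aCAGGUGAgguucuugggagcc

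Of the 6 strands of the chromosome 19 cluster, 4 were enriched and 2 depleted, against 23.5% and 29.2% of all tested miRNAs. miR-99b-5p was enriched with a log2 ratio of 1.15 (SE 0.14, adjusted p = 0.000121), so strands with 1 seed ran from miR-99a-5p at -2.07 through miR-100-5p at 0.22 to miR-99b-5p at 1.15. The log2 ratio of miR-99b-5p to miR-99a-5p within a library shifted by 3.23, or 9.40-fold. miR-99b-5p also has 5 G, and it differs from miR-99a-5p at 4 positions (A1C, U11A, U16C and U21C). miR-125a-5p was enriched at 0.52 (adjusted p = 0.0148) where miR-125b-5p was depleted, and the log2 ratio of miR-125a-5p to miR-125b-5p within libraries shifted by 1.25. miR-125a-3p was enriched at 2.24 (SE 0.15, adjusted p = 2.7e-06), in the direction of miR-125b-1-3p and opposite to miR-125b-2-3p. MIR125A shifted between its arms by -1.74, where MIR125B1 shifted by -1.63 and MIR125B2 by 1.45. These paralog ratios were chosen after the values were seen and were not tested. The 3p strand miR-99b-3p, with the seed of miR-99a-3p, was depleted at -0.89.

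**Figure D5:**
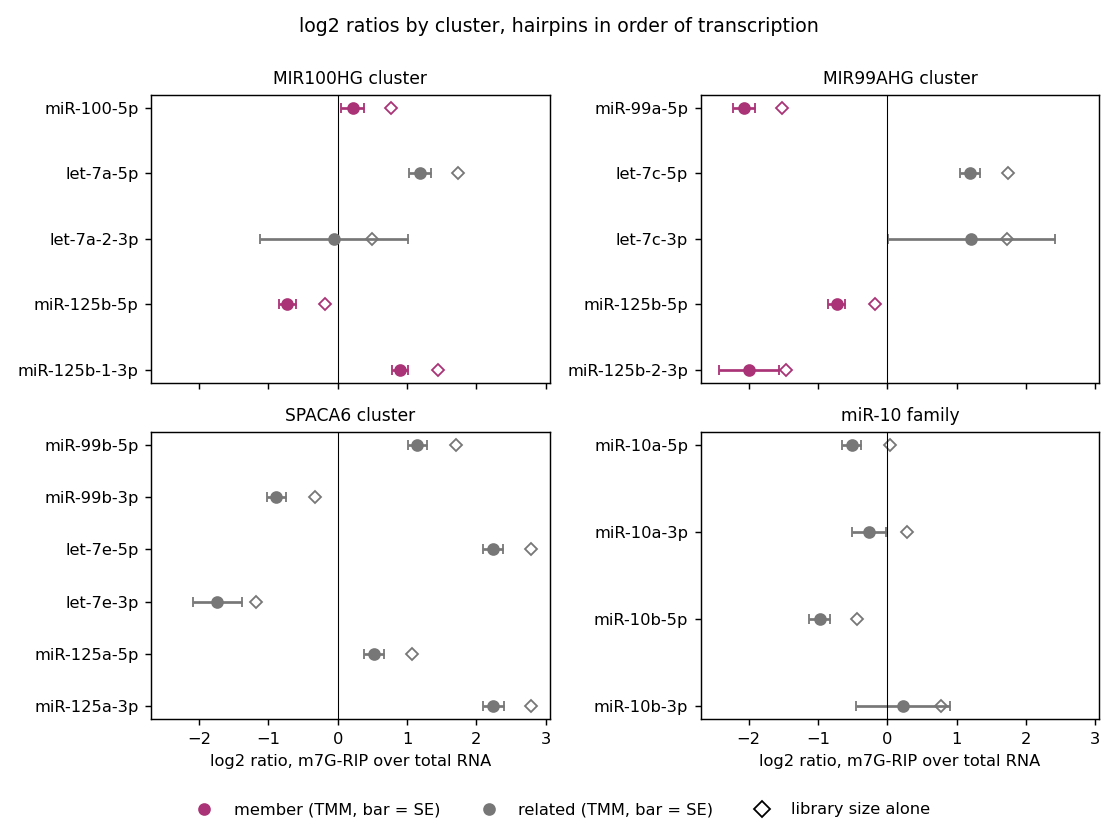
log2 ratio of m7G-RIP over total RNA in each cluster, hairpins in order of transcription; filled points are TMM-scaled edgeR values with their SE, open diamonds the values with library size alone, and members are in colour. miR-125b-5p is drawn under both host genes because both hairpins yield it, and under MIR99AHG the members lie below 0 while the let-7 strands lie above it.

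The 5p let-7 neighbours in the host genes had higher log2 ratios than the 5p members. Of 5 neighbour strands tested in edgeR, both 5p strands were enriched, and the 3 others, all 3p strands, passed in neither direction. let-7c-5p, made 658 bases from MIR99A, had a log2 ratio of 1.19 (SE 0.14, adjusted p = 0.000113), against -2.07 for miR-99a-5p. let-7a-5p, which is also made from hairpins elsewhere in the genome, had 1.19 (SE 0.16, adjusted p = 0.000266), against 0.22 for miR-100-5p. The miR-10 family, relatives of the miR-99 family, had 0 of 4 strands enriched and 2 depleted, miR-10a-5p at -0.52 and miR-10b-5p at -0.98. For the neighbours and this family alike, the shares over all tested miRNAs were 23.5% enriched and 29.2% depleted. With library size alone miR-10a-5p stood at 0.031, no longer past the threshold.

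The miRNAs whose pattern over the 6 libraries lay closest to each member, by the root mean square distance of centred log2 CPM among 358 candidates, came from other families. miR-22-3p was closest to miR-99a-5p at 0.069, and miR-1247-3p was closest to miR-125b-1-3p at 0.068. miR-107 was closest to miR-125b-5p at 0.10 and miR-503-5p to miR-100-5p at 0.11. The closest to miR-125b-2-3p, miR-29a-3p, was at 0.24, the widest of these distances. Within a distance of 0.5 lay 108 candidates for miR-100-5p, 50 for miR-99a-5p and 96 for miR-125b-5p. For miR-125b-1-3p there were 118 and for miR-125b-2-3p 15, so a close pattern was not particular to the miRNAs named.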

How the data were processed

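The members and lists were chosen with earlier results of these data known. Small RNA libraries (NEBNext, single-end) of 3 total RNA and 3 m7G-RIP samples were grouped and numbered by their titles. The authors deposited raw counts per mature miRNA. Per the methods, adaptors were removed with Trimmomatic, STAR aligned whole reads to GRCh38, and hits were counted with featureCounts on miRBase, while the submitters' processing notes name Bowtie2; versions are not given in the sources used here. A read with several alignments may have been counted more than once, which bears on miR-125b-5p and let-7a-5p. The count of miR-125b-5p was odd in 4 of 6 libraries, so in these not every read was counted at both hairpins.

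The test was that of edgeR 4.0.16, run in R 4.3.3 (TMM, filterByExpr by group, robust quasi-likelihood F test, Benjamini-Hochberg over 620 miRNAs, threshold 0.05), after a check on simulated counts. The study's own tool was DESeq2, run here (1.42.0) as an alternative. Standard errors are the log2 ratio over the square root of F. Ratios within a library used counts plus 0.5 and exact two-sided permutation tests over 8 pairs. Intervals of shares are Clopper-Pearson (scipy 1.17.1). All members, their cluster neighbours, the chromosome 19 cluster, the miR-10 family, strands that share a seed and the 3 closest patterns per member made up the rule for named miRNAs. Single-base pairs and paralog ratios were added after values were seen. Sequences are RefSeq GRCh38.p14, matched for 557 of 620 tested miRNAs (89.8%), and loci are GENCODE release 44. Libraries were not paired by replicate number in the main test. Alternatives changed the scaling, filter, tool, threshold, pseudocount, replicate block and libraries used.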

Additional observations from a re-analysis of the deposited data

How the results depend on the processing

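The log2 ratios of miR-99a-5p, miR-125b-1-3p and miR-125b-2-3p kept their direction and stayed past the threshold in all 15 alternatives of each, and the remaining values below are those that did not. Scaling decided the calls of miR-100-5p, which was 0.76 with library size alone and 0.66 with the 10 most abundant miRNAs left out of the library sizes (both enriched), and of miR-125b-5p, which was -0.18 with library size alone. The number of members enriched was 2 under both of those scalings and 0 where a 2-fold ratio was also asked for. The number depleted was 2 with library size alone and 2 where the 2-fold ratio was asked for. miR-100-5p was -0.064 with no filter on low counts and -0.19 without m7G-RIP replicate 2; it was past the threshold in neither, and the cause was not tested. The arm shift of MIR100 was -0.50 with a pseudocount of 5 and -0.29 without total RNA replicate 3, and that of MIR99A was -3.02 with a pseudocount of 5. With miR-21-5p out of the total, the change in share was -1.19 points for the miR-99 family 5p strands and -1.51 points for the 7 members; with the 10 most abundant other miRNAs out of it, the changes were 8.88 and 8.63 points.

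Leaving out each library in turn gave 1 enriched and 3 depleted members every time. The log2 ratios ranged from -0.19 to 0.19 for miR-100-5p, -2.41 to -2.08 for miR-99a-5p, -0.99 to -0.72 for miR-125b-5p, 0.68 to 0.89 for miR-125b-1-3p and -2.54 to -1.83 for miR-125b-2-3p. Shifts ranged from 2.20 to 2.38 for miR-100-5p over miR-99a-5p, 2.56 to 3.41 for miR-125b-1-3p over miR-125b-2-3p -0.29 to 1.82 for the arms of MIR100 and -3.09 to -0.85 for those of MIR99A. The share of the miR-99 family 5p strands differed by 3.41 to 5.82 points that of the 7 members by 3.41 to 5.81, and that of miR-125b-5p by -0.050 to -0.024.

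Replicate numbers were shared between groups, but correlations of same-numbered libraries were -0.05, -0.09 and 0.08 over the tested miRNAs, and only replicate 3 correlated best with its own number; for the 306 miRNAs that averaged 100 counts or more they were 0.07, 0.10 and 0.11, each best with its own number. With the replicate block 1 member was enriched and 3 were depleted, with log2 ratios of 0.19 for miR-100-5p, -2.09 for miR-99a-5p, -0.74 for miR-125b-5p, 0.89 for miR-125b-1-3p and -2.16 for miR-125b-2-3p. Depth limits the 3p strands of MIR100 and MIR99A, which had no fitted log2 ratio, and a pseudocount of 0 could not be run for their pairs.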
